A study of Mus musculus with 4 samples.

Results

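The isoforms expressed by unrecombined control neural stem cells were described from 1 of the 4 Nanopore libraries of the series, that of Tut1f/f cells given an empty lipid nanoparticle (LNP). The column of this library was taken alone, and only isoform entries that name a gene were used, which were 39258 with reads of 46637 in the table. They covered 13263 of the 14949 genes in the table. The other 3 libraries were from Tut1f/f, p53f/f and Tut1f/f;p53f/f cells given Cre-LNP, for which the design states 3 days, and their values were not used. All 4 carry floxed alleles, so the control is not genetically wild type although its title calls it so: it holds loxP sites in both copies of Tut1, the terminal uridylyltransferase of U6 snRNA, without Cre. The cells were primary neural stem cells of the mid-gestation mouse neocortex, grown as neurospheres in serum-free medium with bFGF and EGF. The labels give the tissue as brain and the cell type only as neural cells. There was 1 library and nothing states how many embryos it came from, so no value had a replicate check and no test was made. Intervals in brackets are 95% intervals (exact Poisson for levels, Wilson for shares), and they cover counting error only, since the cDNA was amplified by PCR and reads carry no molecular identifier.

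Neural stem cells of the developing cortex, the radial glia, divide beside the ventricle and give rise to neurons, either directly or through intermediate progenitors, and later to astrocytes and oligodendrocytes. In culture, bFGF and EGF keep them dividing. Most mammalian genes are spliced in more than one way, and besides coding transcripts they yield retained-intron transcripts, which keep an intron, and transcripts with a premature stop codon, which are substrates of nonsense-mediated decay (NMD). A long read follows a cDNA along much of its length, so it can be given to an isoform as a whole.

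The column held 5125888 reads, of which 4244467 (82.8%) were on entries that name a gene. Levels are given as reads per 1000000 of these gene reads (RPM), without further scaling. At this depth 1 read was worth 0.236 RPM, and 3 reads, taken here as the limit that a count of 0 allows, 0.707. The exact Poisson interval of a count of 0 reached somewhat higher, to 0.869 RPM. Since 1 read stands for 1 amplified cDNA copy and not for a fragment, levels were not divided by transcript length. Whether length affected amplification or sequencing was not tested. For the leading genes the level per kilobase of the longest annotated transcript is given as well. Detected genes had a median of 41 reads, 8466 genes had at least 20, and the 535 genes with at least 1000 reads took 69.8% of gene reads.

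Several kinds of entry made up the gene reads. Names of Ensembl transcripts held 78.1% of gene reads on 17912 entries with reads. Ensembl names with an added number, called variants here, held 8.30% on 5775 entries. Entries named by the identifier of a sequencing read held 13.6% on 15571 entries, and the table gives no structure for them, so whether such an isoform codes for protein could not be read from it.

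A single ribosomal RNA gene, CT010467.1, led the library with 792995 reads (18.7% of gene reads). The next genes encode small, abundant proteins of dividing and neural cells. Tmsb10, which encodes the actin-binding thymosin beta 10, had 51049 reads, or 12027 RPM (11923 to 12132). Ppia, which encodes the prolyl isomerase cyclophilin A, had 9677 RPM (9583 to 9771). Fabp7, the brain fatty acid-binding protein that marks radial glia, followed with 9288 (9196 to 9380), and Ckb, the brain creatine kinase, with 9054 (8964 to 9145). The intervals of these 4 genes do not overlap. Per kilobase the order was different: Tmsb10 17431 RPM per kilobase, Fabp7 10554, Ppia 3392 and Ckb 3189.

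The other genes among the 10 with most reads were the mitochondrial large ribosomal RNA mt-Rnr2 with 7818 RPM, the glycolytic enzyme gene Gapdh with 6164, the elongation factor gene Eef1a1 with 6141, the ribosomal protein gene Rplp1 with 5040 and the processed pseudogene Gm14303 with 4901. The intervals of Gapdh (6090 to 6240) and Eef1a1 (6067 to 6216) overlap. Per kilobase the order among these 5 was again different: Gm14303 28663 RPM per kilobase, Rplp1 10099.7, mt-Rnr2 4942, Eef1a1 3423 and Gapdh 1874. Outside ribosomal proteins and mitochondrial genes, the coding genes that followed were Wdr89 with 4536 RPM, Dbi, which encodes the acyl-CoA-binding protein, with 4187, and the histone variant gene H2afz with 3645. Tpt1 had 3574, the tubulin gene Tuba1a 3331, Eno1 3035, the actin gene Actg1 2964, the predicted gene Gm2000 2301 and the ADP/ATP carrier gene Slc25a5 2134. The main isoform held 96.5% of the reads of Tmsb10, 95.8% of Fabp7, 94.8% of Ppia and 92.7% of Ckb. Among the other genes named here its share ran from 81.2% for Eno1 to 100% for Rplp1. Over all genes with at least 20 reads the median was 85.7%.

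Protein-coding genes took 73.3% of gene reads (73.3 to 73.4) over 10940 genes, and ribosomal RNA genes 18.7%. With ribosomal RNA genes left out, the share of coding genes was 90.2%. The 10 genes with most reads held 25.7% of gene reads, and 9.18% without ribosomal RNA genes. Processed pseudogenes, which are reinserted copies of mRNAs, followed with 603 genes and 4.57%, and 96.8% of their reads were on entries named by a read. Gm14303 (GRCm38 chromosome 2, 172509521 to 172509691) had 20804 reads, Rps13-ps2 9995, Gm4149 9138 and Gm10123 8411. Reads of such copies and of their parent genes share sequence, so these levels and those of the parents are uncertain. Among unprocessed pseudogenes, Gm10925 had 12903 reads, Gm29216 9608 and Gm28661 8119, and the 3 lie next to each other on chromosome 1 between 24613974 and 24616197. In this gene type 99.5% of reads were on entries named by a read. Whether these reads share sequence with other genes, mitochondrial ones included, was not tested, so these levels are uncertain too. Genes of the annotated types lincRNA, antisense, processed transcript, bidirectional promoter, sense intronic and sense overlapping were grouped as long non-coding. They held only 1.07% over 862 genes, 169 of them with at least 20 reads. They were led by Gm10076 with 5766 reads, by the snoRNA host gene Gas5 with 5217 and by 2410006H16Rik with 2607. The grouping follows the annotated type alone and so takes in Ndufb1-ps with 2213 reads and Cct6a with 1541. The nuclear RNA Malat1 had 55 reads and was picked after its value was seen. Genes annotated as snoRNA had 276 reads in all and as snRNA 79.

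**Figure D1:**
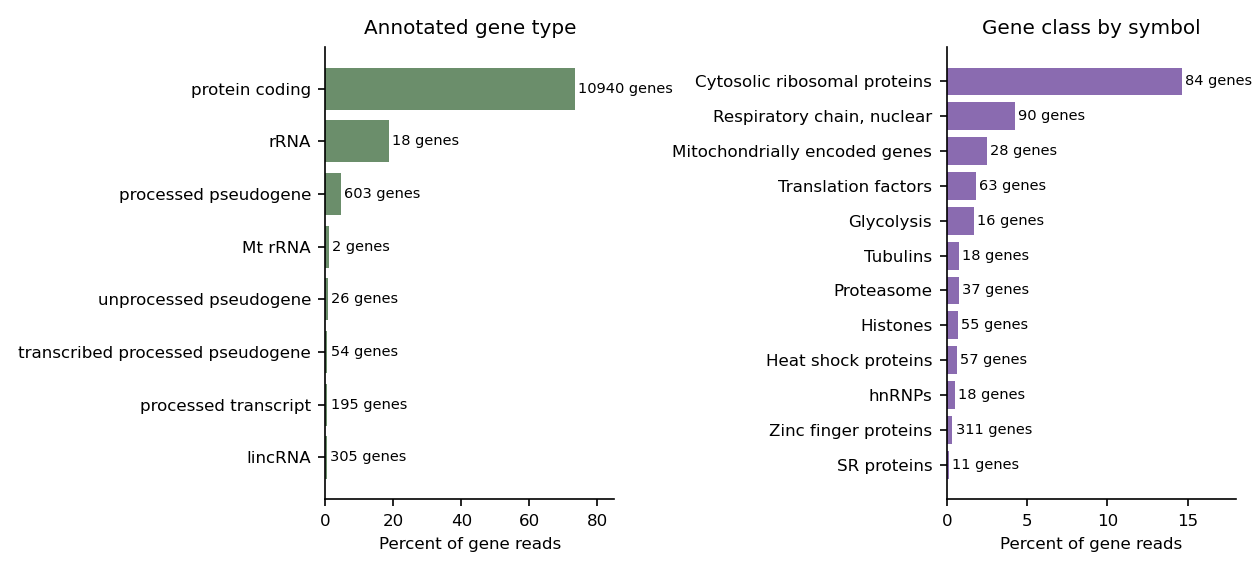
Percent of gene reads (horizontal axes) by annotated gene type (left, the 8 types with most reads) and by gene class defined by symbol (right), with the number of genes with reads beside each bar. Protein-coding genes held 73.3% and ribosomal RNA genes 18.7%, and among the classes cytosolic ribosomal proteins came first with 14.7%.

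Among the gene classes, those of protein synthesis and energy metabolism held the largest shares. Cytosolic ribosomal protein genes held 14.7% of gene reads, and 84 of 87 had reads, with Rplp1 at 21391 and Rps23 at 19030. Nuclear genes of the respiratory chain held 4.25% over 90 of 94 genes, led by Cox8a with 7348 reads and Ndufa4 with 6733. Mitochondrially encoded genes held 2.50%, led by mt-Rnr2 with 33182 reads and mt-Nd1, a subunit of complex I, with 19319. Translation factors, taken by symbol, held 1.81% (Eef1a1 26067 reads, Eif1 6978). All 16 annotated gene identifiers with a listed glycolytic symbol had reads and together held 1.67% (Gapdh 26165, Eno1 12884). The identifiers outnumber the symbols listed. Proteasome subunits held 0.749% (Psmb6 2843 reads, Psma7 2644), tubulins 0.768% (Tuba1a 14139, Tuba1b 8282) and heat shock proteins 0.620% (Hsp90ab1 5721, Hspa8 5596).

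Families that regulate RNA and chromatin each held under 1% of gene reads. The hnRNPs, RNA-binding proteins that act on splicing, held 0.498% over 18 of 20 genes, with Hnrnpa1 at 5937 reads and Hnrnpa2b1 at 4254. SR proteins, the other large family of splicing regulators, held 0.130%, with reads of all 11 genes, Srsf3 at 1660 and Srsf5 at 1216. Histones held 0.690%, and their leading members were the variants H2afz with 15473 reads and H3f3a with 4097. Zinc finger (Zfp) genes held 0.347% although 311 of 397 had reads. Zfp207 and Zfp664 were the highest of them, with 817 and 811 reads, which their intervals do not tell apart, and 58.7 and 46.7 RPM per kilobase.

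Markers of dividing neural stem cells led the marker lists. Of 23 genes of neural stem and radial glial cells, 17 had at least 3 reads, and their summed level was 11743 RPM (11640 to 11846), the highest of 15 lists. Per kilobase the first 5 lists kept their order. Fabp7 alone gave 39422 of its 49842 reads, and without it the list, at 2455 RPM, would stand below the proliferation genes. The intermediate filament gene Vim had 5030 reads, the glutamate transporter gene Slc1a3 1149, the receptor phosphatase gene Ptprz1 878 and the stem cell transcription factor gene Sox2 843. The Notch targets Hes1 and Hes5 had 594 and 252 reads, Nes, which encodes the filament protein nestin, had 555, and Sox9 had 147. Low members included Pax6 with 35 reads, Hopx with 21 and Prom1 with 20. The remaining 6 members had no read on an entry naming them: Sox1, Sox3, Notch1, Notch2, Msi1 and Id4.

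All 20 proliferation genes had reads, at least 196 each, and their sum was 6491 RPM (6414 to 6568). The D-type cyclin genes Ccnd2 and Ccnd1 had the most, 5213 and 3411 reads, their partner kinase gene Cdk4 2927, the mitotic ubiquitin-conjugating enzyme gene Ube2c 1962, and Mcm4, of the replicative helicase, 1789. Among receptors of the EGF and FGF families, Egfr had 185 reads, Fgfr3 175 and Fgfr1 34, while Fgfr2 and Erbb2 had none on entries naming them.

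Glial lineage genes came next, ahead of neuronal ones. Astrocyte genes summed to 664 RPM (640 to 689), with 12 of 15 at 3 reads or more. Aldoc, the brain aldolase, had 1336 reads, Sparcl1 243, the gap junction gene Gja1 224 and Aldh1l1 187, while Gfap and Aqp4, markers of mature astrocytes, were at 0. Oligodendrocyte lineage genes summed to 456 RPM (436 to 476). Here Olig2 had 998 reads, Cnp 319, Olig1 267, Cspg4 122 and the progenitor receptor gene Pdgfra 115. The myelin gene Mbp had 7 reads, and Mog and Mag had 0.

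Neuronal genes summed to 114 RPM (104 to 124), and 12 of 20 had no read on an entry naming them. The microtubule-associated protein gene Map2 had 275 reads, the synaptic vesicle gene Syp 65, Tubb3 58, Mapt 26 and Gad1 25, with Dcx, a marker of migrating neurons, at 4. The members at 0 included Rbfox3, Neurod2, Neurod6, Tbr1, Bcl11b, Stmn2, Gad2, Slc17a6, Slc17a7, Slc32a1 and Reln. Of 9 genes of intermediate progenitors, 3 had reads, among them Btg2 with 168 and Elavl4 with 80. Eomes, Neurog1, Neurog2, Insm1, Neurod1 and Neurod4 were at 0.

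Genes of regional identity had few reads on entries naming them. Dorsal forebrain genes summed to 32.3 RPM (27.1 to 38.2), from Lhx2 with 78 reads, Emx2 with 33, Otx1 with 14 and Otx2 with 12. Emx1, Gli3, Lef1, Dmrta2 and Wnt8b had no read on an entry naming them. Ventral forebrain genes summed to 19.1 (15.2 to 23.7), from Nkx6-2 with 50 reads, Gsx1 with 27, Dlx5 with 3 and Dlx6 with 1. Cells of other origins left few reads. Mesenchymal and mural genes had 16 (Acta2 8, Vtn 8), the choroid plexus gene Ttr 9, the blood gene Hba-a1 6 and the microglial gene P2ry12 3. All 7 endothelial and all 6 pluripotency genes were at 0 on entries naming them. Of the 4 Y-linked genes tested, Eif2s3y had 155 reads, Kdm5d 102, Ddx3y 85 and Uty 28, while Xist was at 0.

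**Figure D2:**
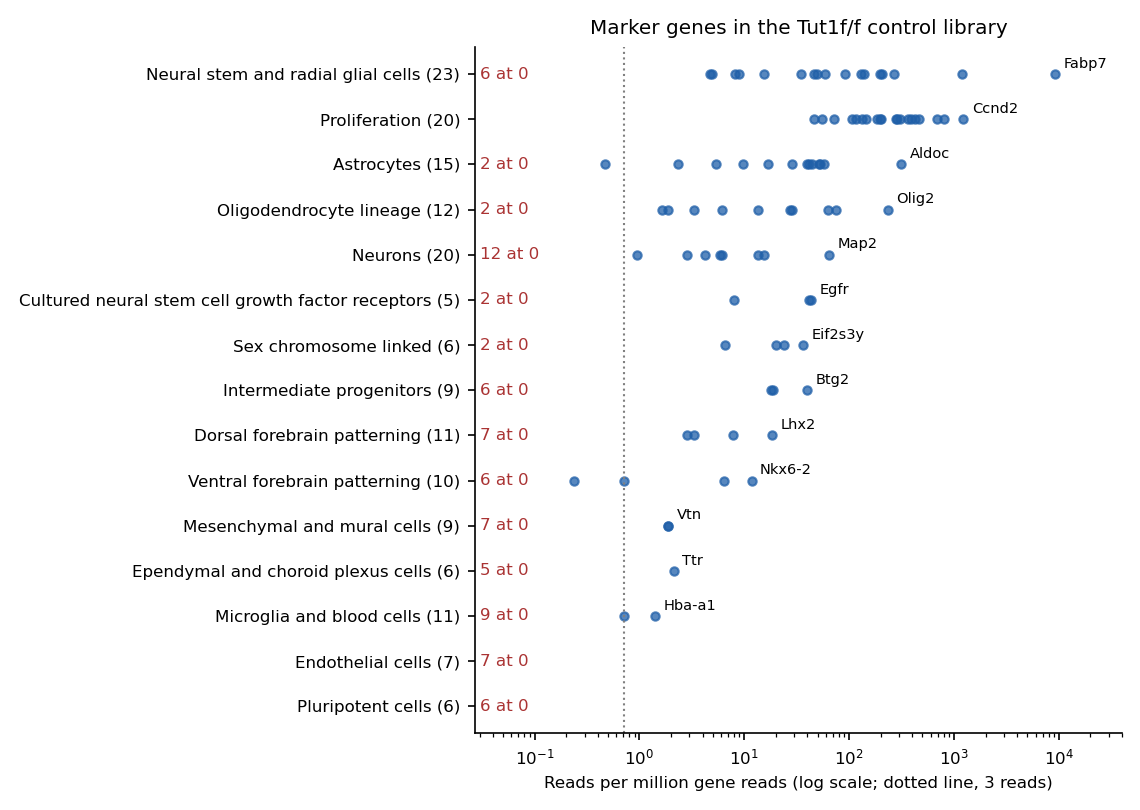
Level of each marker in RPM (horizontal log axis) by list, with the list's size in brackets. Each point is 1 gene with reads, the number of members at 0 stands at the left, the highest member is named, and the dotted line marks 3 reads. Neural stem cell and proliferation genes reach the highest levels, and endothelial and pluripotency genes have no point.

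A gene at 0 here was not always without reads. Another 881421 reads (17.2% of the column) were on 109424 entries that give a position rounded to a kilobase and no gene. Of 169 distinct markers, 79 had no gene-named read, and 74 of these had no entry of their own in the table at all. For 21 of the 79, entries without a gene within a kilobase of an annotated exon held 3 or more reads. These positions give no strand, and such reads may also be intronic or antisense. All 6 missing neural stem cell genes were among them: Notch1 had 270 such reads, Sox3 267, Msi1 90, Notch2 28, Sox1 7 and Id4 7. Of the dorsal genes, Dmrta2 had 42 and Gli3 25, while Emx1, Lef1 and Wnt8b had 0. Of the neuronal genes at 0, Bcl11b had 40 and Rbfox3 19. Detected markers had such reads too: Nes had 1471 such reads beside its 555, Msi2 560 beside 65, Sox9 260 beside 147 Mapt 134 beside 26, Emx2 45 beside 33 and Dcx 26 beside 4. A zero among the markers thus holds for the gene-named entries only. With these reads added, 109 markers in place of 88 reached 3 reads. The summed level of the dorsal list went from 32.3 to 97.5 RPM and that of the ventral list from 19.1 to 20.3. The neuronal list went from 114 to 187 RPM, intermediate progenitors from 76.6 to 141, the oligodendrocyte lineage from 456 to 836 and the growth factor receptors from 92.8 to 179. The endothelial and pluripotency lists gained 5 and 23 reads.

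**Figure D3:**
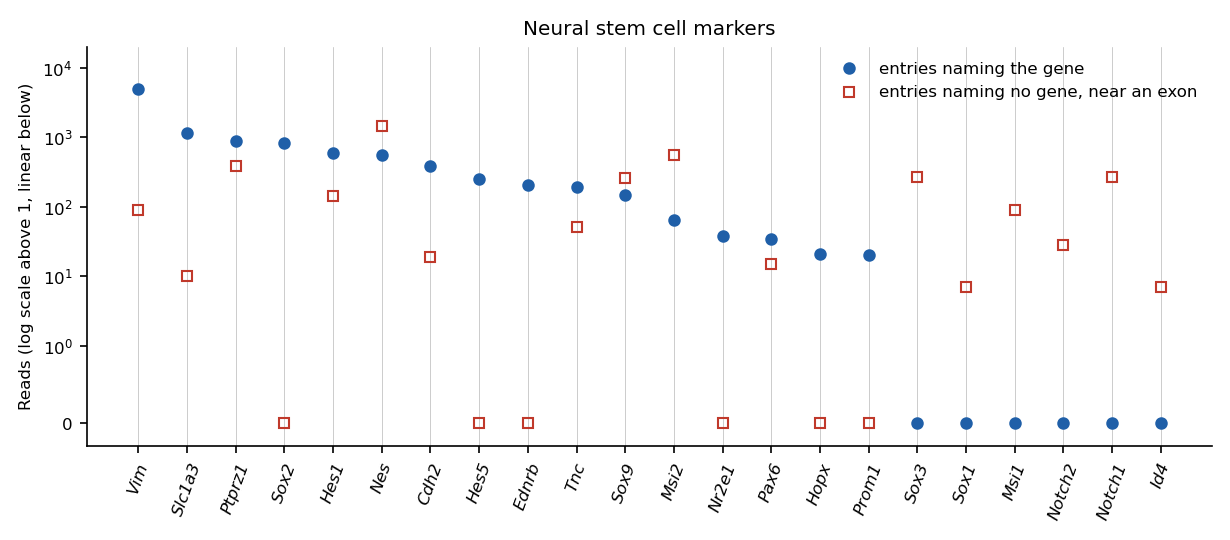
Reads (vertical axis, logarithmic above 1 and linear below) of neural stem cell markers other than Fabp7 on entries naming the gene (filled circles) and on entries naming no gene within a kilobase of an exon (open squares). Notch1 and Sox3 have no reads of the first kind and 270 and 267 of the second.

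The genes targeted elsewhere in the series were low to moderate in these unrecombined cells. Tut1 (GRCm38 chromosome 19, 8953847 to 8966210) had 8.72 RPM (6.14 to 12.02) over 4 isoforms, the main one with 75.7% of its reads. Trp53, which encodes the p53 tumour suppressor, had 41.2 (35.3 to 47.8) over 4 isoforms, the main one with 81.1%.

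Most genes used several isoforms, but 1 of them usually held most reads. Among the 8466 genes with at least 20 reads, 6589 (77.8%) had 2 or more isoforms with reads and 476 (5.62%) had 10 or more. The median was 3 isoforms (quartiles 2 and 5). The main isoform held a median of 85.7% of the reads of its gene. It held at least 90% in 3719 genes (43.9%) and under 50% in 942 (11.1%). The effective number of isoforms, the inverse Simpson index, counts the equally used isoforms that would give the same evenness, and its median was 1.33.

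The count of isoforms went with depth. Its median was 2 for genes with 20 to under 100 reads, 4 from 100 to under 1000, 6 from 1000 to under 10000 and 7 from 10000. The number expected when 50 reads are drawn from each gene had medians of only 2.80 to 3.14 over the same ranges, so counts are compared between classes only on this scale. Over all 6133 genes with at least 50 reads it was 2.97. SR proteins stood at 6.91 isoforms in 50 reads (8 genes) and hnRNPs at 6.14 (17 genes), against 3.00 for all coding genes. Their main isoforms held medians of 66.3% and 53.2%, against 84.9%. Ribosomal proteins were at 3.70 isoforms with a main share of 82.5%, and nuclear respiratory chain genes at 2.83 with 89.4%. Histone and mitochondrially encoded genes had a median of 1 isoform with all reads. These are descriptions of classes of few genes, without a test.

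Gas5, a non-coding gene that hosts snoRNAs in its introns, had the most isoforms, 102 over 5217 reads. The leading one, ENSMUST00000159706, had 1946 reads (37.3%), and the next 1000 (19.2%) and 713 (13.7%). Rpl13a, a ribosomal protein gene that also hosts snoRNAs, had 60 isoforms over 6489 reads. Its main coding transcript held 47.0%, and transcripts annotated as NMD substrates came next with 9.60% (623 reads) and 519 reads. Cuedc2 followed with 38 isoforms, the proteasome gene Psma3 with 31, and Tecr, Tmem234, Atrx, Pcbp2 and Pvt1 with 29 each. Ckb had 26, but its main isoform held 92.7% of its reads and its effective number was 1.16. Atrx encodes a chromatin remodeller, and its main isoform ENSMUST00000198209 was a short transcript of 1579 bases with 235 of 502 reads.

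By evenness the order was different. Pcbp2, which encodes a poly(C)-binding regulator of RNA, had an effective number of 17.7 isoforms, and its leading isoform held 29 of 261 reads (11.1%, interval 7.85 to 15.5). Taf1d followed with 12, Ybx1, a cold shock domain RNA-binding protein gene, with 10.6, Ttc3 with 9.03, and the tropomyosin gene Tpm1 with 8.50. Cuedc2 stood at 8.10, Cnot2, of the CCR4-NOT deadenylase, at 7.70, Map2 at 7.66 and the glycolytic gene Tpi1 at 7.31. For Cnot2 the annotated coding transcripts ENSMUST00000105267 and ENSMUST00000168036 led with 68 and 34 of 245 reads. The long non-coding Pvt1 had 17.4 over 118 reads, under the minimum of 200 reads set for this ranking.

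**Figure D4:**
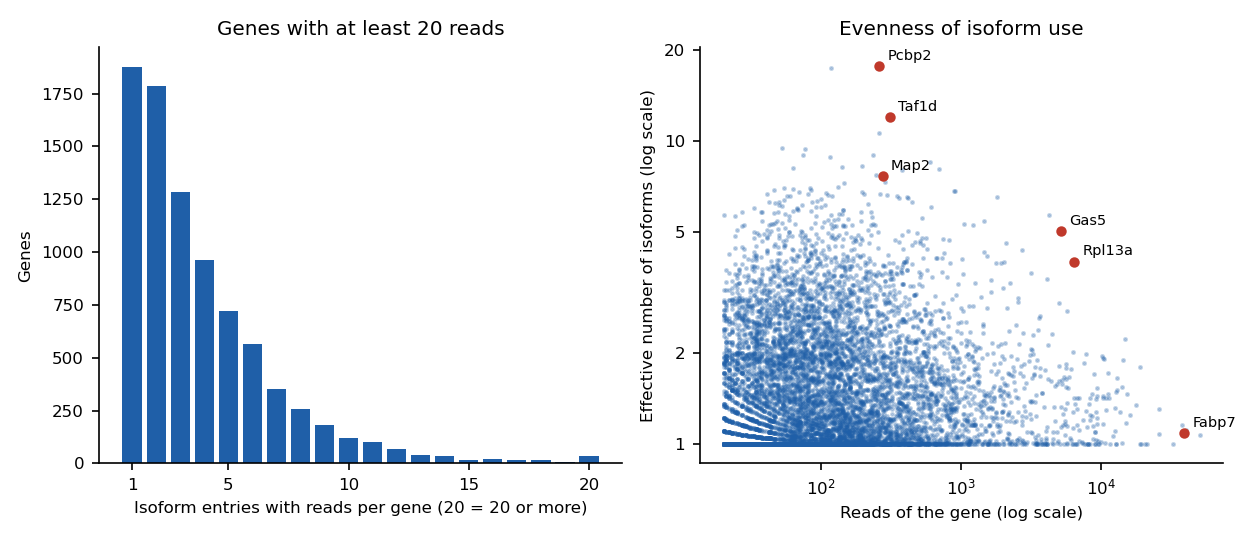
Left, number of genes (vertical axis) by number of isoform entries with reads, for genes with at least 20 reads. Right, effective number of isoforms against reads of the gene, both on log axes, 1 point per gene with the ribosomal RNA gene CT010467.1 left out. Pcbp2 at 17.7 and Taf1d at 12 stand above most genes, and Fabp7 lies near 1 despite its depth.

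Most marker genes had the greater part of their reads on 1 isoform. Of 73 markers with at least 20 reads, 20 had 1 isoform, the median was 3, and the main isoform held a median of 89.96%. Sox2 with 843 reads and Hes5 with 252 each had only 1 entry in the table, an annotated transcript, so their share of 100% was fixed. Cdh2 had 98.7% of its reads on 1 annotated transcript. Vim was more divided, with 72.2% on ENSMUST00000028062, 12.6% on a variant of that transcript and 11.7% on an isoform named by a read. Ednrb, the endothelin receptor B gene, used the coding transcripts ENSMUST00000022718 and ENSMUST00000172237 for 114 and 49 of 209 reads. Pax6, a transcription factor gene, had 27 of 35 reads on ENSMUST00000090397 and 7 on ENSMUST00000111082. The most even stem cell marker was Tnc, which encodes the matrix protein tenascin C, with 11 isoforms, an effective number of 6.81 and 25% on its main isoform.

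For most coding genes the main isoform was an annotated coding transcript. This held for 6900 of the 8024 protein-coding genes with at least 20 reads (86.0%, interval 85.2 to 86.7). In 1223 of the 6900 it was a variant, counted here as the transcript it is named after, although what the added number means is not stated. With variants counted as not annotated coding, 29.1% of classified genes had a main isoform of another kind, in place of 13.8%. Of the 8009 genes whose main isoform could be classified, 1109 (13.8%, 13.1 to 14.6) had another kind of main isoform, and 671 of these had no read on an annotated coding transcript. In 939 of the 1109 the exact interval of the reads of the main against the best coding isoform left out equal use. A main isoform named by a read was found in 939 genes (11.7%), which is a different set of the same size, with 810 clear in this sense. Annotated but non-coding transcripts were the main isoform of 170 genes (2.12%): retained-intron transcripts in 89, other non-coding transcripts in 59 and NMD transcripts in 22. Of these 170, 144 were shorter than the longest coding transcript of their gene, with a median of 43.8% of its length. Of the 6900 coding main isoforms, 1646 were shorter than it too, with a median of 100% of its length over all 6900. Counted by reads, 86.8% of the reads of coding genes were on annotated coding transcripts, 10.6% on isoforms named by a read, 1.26% on retained-intron, 0.688% on processed and 0.569% on NMD transcripts.

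The share of genes without a coding main isoform was higher at greater transcript length. It was 4.26% of genes whose longest transcript is under 1 kb, 5.1% from 1 to 2 kb, 8.31% from 2 to 4 kb, 22.7% from 4 to 8 kb and 51.8% from 8 kb. Read depth moved with it, from a median of 204 reads per detected gene in the shortest group to 30 in the longest, and the parts of length and depth were not tested. By class, 29 of 167 zinc finger genes (17.4%) had such a main isoform, near the 13.8% over all classified genes. Tubulins were at 12.5%, hnRNPs at 11.8% and SR proteins at 11.1%, while 3 of 84 ribosomal protein genes and 0 of 22 histone genes had one.

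**Figure D5:**
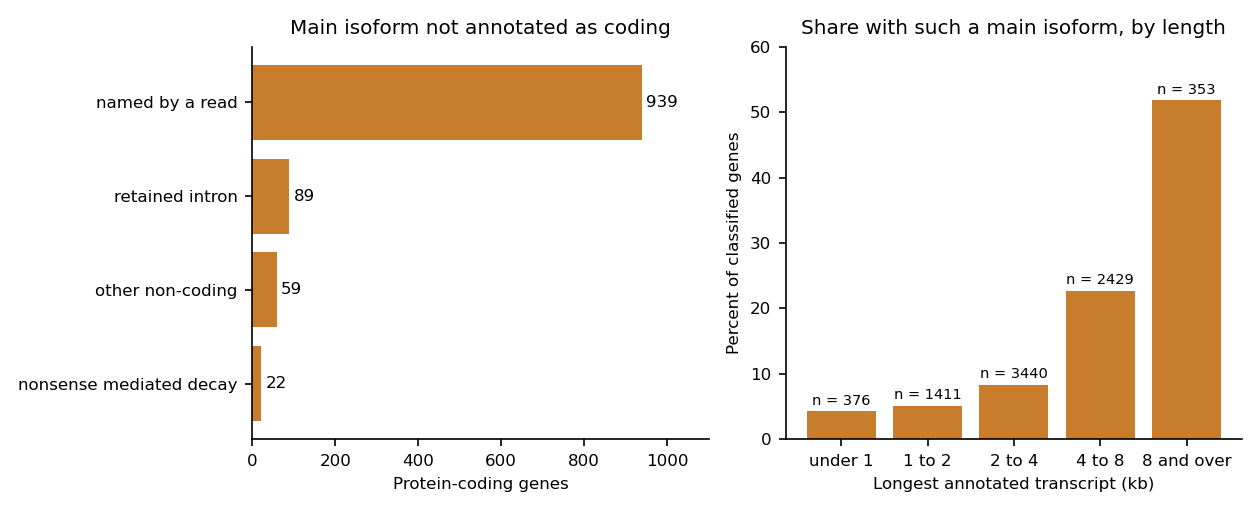
Left, number of protein-coding genes with at least 20 reads whose main isoform is not an annotated coding transcript, by kind of main isoform. Right, percent of classified genes with such a main isoform by length of the longest annotated transcript, with the number of genes above each bar. Isoforms named by a read made up 939 of 1109, and the share went from 4.26% under 1 kb to 51.8% from 8 kb.

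Retained-intron transcripts led in genes of several functions. For Rps26, a ribosomal protein gene, ENSMUST00000219591 held 845 of 917 reads (92.1%, interval 90.2 to 93.7), but the near-identical copy Rps26-ps1 had 7381 reads, so the count of either is uncertain. Ppp1r14b, which encodes a phosphatase inhibitor, had 755 of 894 reads (84.5%) on ENSMUST00000235195. Trappc4, of the vesicle-tethering complex TRAPP, had 239 of 462 (51.7%) on ENSMUST00000213747, against 136 on its best coding transcript. In these 3 genes the retained-intron transcript begins inside an intron of the coding region and runs on into the next exon. The intronic stretch at its start is shown because it sets the isoform apart, with the AG of the splice acceptor in capitals, from GENCODE M21 transcripts.
Rps26 (GRCm38 chr10:128626241-128626424, minus strand): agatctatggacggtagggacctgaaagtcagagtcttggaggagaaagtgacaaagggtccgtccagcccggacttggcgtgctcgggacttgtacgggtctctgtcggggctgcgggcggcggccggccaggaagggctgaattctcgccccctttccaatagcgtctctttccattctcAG
Ppp1r14b (GRCm38 chr19:6976449-6976543, plus strand): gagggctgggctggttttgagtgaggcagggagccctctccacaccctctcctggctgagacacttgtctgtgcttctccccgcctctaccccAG
Trappc4 (GRCm38 chr9:44406979-44407106, minus strand): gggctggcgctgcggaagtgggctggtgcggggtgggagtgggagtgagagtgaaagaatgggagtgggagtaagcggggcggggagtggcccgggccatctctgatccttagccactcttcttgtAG

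A read that starts in such a stretch lacks the exons before it, so an intron kept in the mRNA and an internal start could not be told apart from these counts. In Bag6, Wnk1 and Ehmt2 the main isoform came from the 3′ end of the gene. All 363 reads of Bag6, a chaperone gene, were on a transcript of 683 bases, against 3858 for the longest coding one. Wnk1, a kinase gene, had 275 of 384 reads on one of 2934 bases against 11330, and Ehmt2, a histone methyltransferase gene, 184 of 232 on one of 1359 bases against 4026. Pcif1, which encodes an mRNA cap methyltransferase, had 186 of 275 reads on ENSMUST00000145327 and 81 on a coding transcript. Arglu1, a splicing regulator, had 185 of 229 reads (80.8%) on ENSMUST00000208252, which keeps an intron of 2280 bases between exons on both sides (GRCm38 chromosome 8, 8681468 to 8683747), and 44 on coding transcripts.

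Transcripts annotated as NMD substrates led in 22 genes. Ndufa10, a subunit of respiratory complex I, had 842 of 1375 reads (61.2%, interval 58.6 to 63.8) on a variant of ENSMUST00000189503 and 446 on coding transcripts. The histone methyltransferase gene Kmt5a had 159 of 167 reads on such a transcript, the filamin gene Flna 161 of 162 and Acap2 122 of 124, and none of these 3 had a read on a coding transcript. Zfp938 had 191 of 219 reads on ENSMUST00000156218, Supt20 72 of 93 on ENSMUST00000200439 and Ankrd10 71 of 112 on ENSMUST00000210530. In Zfp938 and Supt20 an exon of the coding transcript is extended, and in Ankrd10 an exon of 112 bases is included. The added sequence is shown from its first base to the first stop codon in frame with the annotated start, which is in capitals.
Zfp938 (GRCm38 chr10:82227445-82227530, minus strand): gTAA
Supt20 (GRCm38 chr3:54716638-54717575, plus strand): gacatgaaagcTAA
Ankrd10 (GRCm38 chr8:11620262-11620373, minus strand): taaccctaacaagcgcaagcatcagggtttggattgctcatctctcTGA
The coordinates are those of the whole added stretch, of which only the bases up to the stop are printed.

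Other non-coding transcripts led in 59 genes. 1500011B03Rik had 729 of 841 reads (86.7%) on ENSMUST00000234046. Prpf4b, which encodes a splicing kinase, had 363 of 947 on a transcript of 520 bases at the 3′ end of the gene, and no read on a coding transcript. Camta1 had 230 of 250 reads on such a transcript, Tln1, the talin gene, 104 of 166, Tmem29 101 of 191, and Phf5a, a component of the splicing factor SF3b, 84 of 172. Fopnl divided its 401 reads, with 184 (45.9%) on ENSMUST00000230495 and 133 on its best coding transcript. The non-coding transcript skips coding exons of 85 and 198 bases, which are shown because their absence sets it apart.
Fopnl exon of 198 bases (GRCm38 chr16:14313816-14314013, minus strand): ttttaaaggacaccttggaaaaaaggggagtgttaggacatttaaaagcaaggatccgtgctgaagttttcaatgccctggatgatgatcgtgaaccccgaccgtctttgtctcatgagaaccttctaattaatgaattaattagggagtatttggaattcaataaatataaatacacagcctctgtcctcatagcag
Fopnl exon of 85 bases (GRCm38 chr16:14311047-14311131, minus strand): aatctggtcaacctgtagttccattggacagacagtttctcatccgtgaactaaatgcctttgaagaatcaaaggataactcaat

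Ndufaf4, an assembly factor of respiratory complex I, had 385 of 394 reads (97.7%, interval 95.7 to 98.8) on ENSMUST00000146721 and 9 on coding transcripts. This transcript keeps introns of 270 and 1350 bases of a coding transcript. The shorter one is shown with its first and last 2 bases in capitals.
Ndufaf4 (GRCm38 chr4:24898303-24898572, plus strand): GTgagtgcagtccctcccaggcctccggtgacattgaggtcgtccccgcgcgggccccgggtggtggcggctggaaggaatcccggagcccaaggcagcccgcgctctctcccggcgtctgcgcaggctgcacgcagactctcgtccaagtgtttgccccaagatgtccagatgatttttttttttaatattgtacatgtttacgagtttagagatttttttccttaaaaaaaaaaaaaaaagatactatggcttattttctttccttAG

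Isoforms named by a read led in the largest group, and their structure could not be read from the table. Gm2000, a predicted gene on chromosome 1, had 9761 of 9765 reads on such an isoform, and Rps12-ps3 6642 of 6643. Oaz1, the ornithine decarboxylase antizyme gene, had 5442 of 7820 (69.6%). The complex I subunit gene Ndufa13 had all its 3545 reads on 1 such isoform, the ATP synthase subunit gene Atp5f1 2110 of 2773, and Rpl10-ps3 2484 of 3685. Rpl11 had 1820 of 3686 and Hnrnpa2b1 1458 of 4254 (34.3%), the latter against 658 on its best coding transcript and 1628 on all its coding transcripts together. Rps12-ps3 and Rpl10-ps3 carry the names of copies of ribosomal protein genes, so their counts are uncertain.

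Of the 73 markers with at least 20 reads, 9 had a main isoform that was not an annotated coding transcript. Over all classified coding genes the share was 13.8%, so this count is not particular to the markers. The proliferation gene Mki67 had 198 of 233 reads on an isoform named by a read and none on coding transcripts. Cspg4 (121 of 122 reads), Ddx3y (80 of 85), Slc4a4 (72 of 72) and Nkx6-2 (50 of 50) likewise had no coding read, while Map2 and Tnc had 49 and 38. The growth factor receptor gene Fgfr1 had 32 of its 34 reads on the retained-intron transcript ENSMUST00000126118, and Uty 19 of 28 on ENSMUST00000133976.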

How the data were processed

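The authors deposited a table of whole-number read counts per isoform for 4 Nanopore cDNA-PCR libraries (SQK-LSK110 with EXP-PCB096, from total RNA), 1 per group. The submitters' processing notes name the build mm10. The aligner and isoform caller of this table are not given in the sources used here. The study's methods name minimap2 and FLAIR for long reads of embryonic palliums, another data set. The counts are unnormalised, and entries with a sum over libraries under 3 are present, so no such minimum was applied.

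The column of the Tut1f/f library given empty LNP was used alone. Gene sums, isoform shares and intervals were computed with Python 3.11.15, pandas 2.3.3 and scipy 1.17.1, with figures from matplotlib 3.10.9. Gene and transcript types came from GENCODE M21 on GRCm38, the same build, and matched 99.9% of genes and 99.6% of transcript names. Isoform shares used genes with at least 20 reads, and the ranking by effective number coding genes with at least 200. Levels are reads per 1000000 gene reads, with no scaling between libraries. The interval and rarefaction code was tested on simulated data.

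Named genes were the highest of each list or class, markers at 0 in the stem cell, dorsal and neuronal lists, the 10 genes with most isoforms and the 10 most even, the 8 deepest clear genes per kind of non-coding main isoform, and the targeted genes. Some genes these rules select are not reported here. Pvt1 in the evenness ranking and Malat1 were added after their values were seen. Members, lists and rules were chosen with earlier results of these data known. Alternatives covered read minimums, denominators, merged variants and isoforms named by a read.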

Additional observations from a re-analysis of the deposited data

Results flagged for a closer look

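Reads outside the gene-named entries were flagged as signal in data that the main values do not use. They made up 17.2% of the column (17.16 to 17.23). The single position with most of them, on chromosome 11 at 109011000, held 81373 reads (9.23% of reads without a gene), and no annotated gene lies there. The next were on chromosome 2 at 5379000 with 21401 reads, within Camk1d, and on chromosome 3 at 5860000 with 14200.

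Markers without a gene-named read were flagged where such entries held 3 or more reads near an exon, which was the case for 21 markers. Of the 79 markers at 0, 43 had no such read anywhere in the gene's span. Among markers with at least 3 gene-named reads, 16 had more reads near an exon on entries without a gene than on their own entries.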

How the results depend on the processing

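No paired analysis was possible because each group has 1 library, and no library could be left out. Numbers of detected genes and markers stayed within 1.5 times under minimums of 1, 3 and 10 reads, while 8466 genes had 20 reads. The share of the 10 leading genes was 21.3% of all reads of the column, 9.18% without ribosomal RNA genes and 9.05% also without mitochondrial genes, and the share of coding genes 60.7% and 90.2% under the first and second of these. The shares of the 12 symbol classes moved beyond their counting intervals in 24 of 24 values under those denominators. The share of genes with 2 or more isoforms was 69.6% for entries with 3 reads, 61.3% for entries with 5% of the gene, 75.2% with variants merged, 58.5% for genes with 1 read, 85.03% for genes with 100 reads and 68.3% for the number expected in 20 reads. The median isoform number was 2 for entries with 3 reads and for those with 5%, and 4 for genes with 100 reads. The median main share was 87.5% with variants merged.

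The share of coding genes without a coding main isoform was 16.0% for genes with 10 reads, 9.06% for genes with 100, 11.7% where the interval left out equal use and 2.76% without isoforms named by a read. It was 7.16% for genes with transcripts under 4 kb and 29.1% with variants counted as not annotated coding, both chosen after seeing the data. The share of reads on coding transcripts was 87.0% for genes with 20 reads, 78.0% with genes weighted equally and 97.1% without isoforms named by a read. Per kilobase, 10 of 15 lists kept their rank, and 8 did with reads of entries without a gene near an exon, also chosen after seeing the data. The cause of these shifts was not tested. Genes under 20 reads were too shallow for isoform shares.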
